A study of Mus musculus with 6 samples.

Results

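The 39 imprinted genes described here are genes known to be imprinted in mouse, most of them in brain, and a probe set was counted for a gene only where the array annotation gave that gene alone. Of the 39 genes, 35 had at least 1 such probe set, 98 in all, among 18193 genes with a probe set in the whole series. H19, Zrsr1, Kcnk9 and Peg13 had none and were not analysed here. A further 8 probe sets that list several genes were left out, and 6 of these name Snrpn. After removal of dim probe sets, 31 genes with 74 probe sets were tested, of 13024 genes tested in all.

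Expression was measured on Affymetrix arrays in whole brains of male mice 2 months old. One group of 3 brains came from mice heterozygous for a periphilin knockout (Pphln1+/-), in which 1 copy of the gene is disrupted. The other group of 3 brains came from wild-type C57BL/6 littermates, and each brain had its own array. The site of the disruption and the parent that transmitted it are not given in the sources used here. The labels name no treatment. Since a whole brain mixes many cell types, fewer cells of a type and less RNA per cell cannot be told apart.

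Genomic imprinting is the expression of a gene mainly from the copy inherited from 1 parent. The choice is carried by DNA methylation laid down in egg or sperm at control regions, and it is kept after fertilisation by the zinc finger protein ZFP57, its partner TRIM28 and the histone methyltransferase SETDB1. Periphilin belongs to HUSH, a complex that represses retroelements and a number of genes and that also recruits SETDB1. Imprinted genes lie in clusters, many are strongly expressed in brain, and several act on growth, feeding and maternal behaviour. The arrays do not separate the maternal from the paternal copy, so every value below is the sum of both.

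The results turn on the Dlk1-Dio3 cluster of chromosome 12, where Meg3, Rian and Mirg are long noncoding RNAs made from the maternal copy and Dlk1 is made from the paternal copy. The windows below run from 250 bases before to 50 bases after a gene start and were taken from RefSeq (assembly GRCm38.p6). They are shown for Meg3 and Mirg, the members with the largest differences by the brightest probe set, and for Peg3, which holds the same palindrome as Meg3. Capitals mark the hexamer TGCCGC, read as GCGGCA on the opposite strand, which is the core of the ZFP57 recognition sequence, and the palindrome TGACGTCA, a cAMP response element. A copy of the palindrome cannot overlap the hexamer, whereas hexamers on opposite strands can overlap each other.

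The window of 1 of the Meg3 starts lies at chr12:109540746-109541045, plus strand.

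Meg3: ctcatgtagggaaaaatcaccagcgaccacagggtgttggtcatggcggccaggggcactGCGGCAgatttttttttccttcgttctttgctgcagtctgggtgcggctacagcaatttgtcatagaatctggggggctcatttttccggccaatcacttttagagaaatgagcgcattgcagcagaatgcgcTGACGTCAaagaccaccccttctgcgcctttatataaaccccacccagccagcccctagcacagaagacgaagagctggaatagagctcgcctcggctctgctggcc

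The Mirg window lies at chr12:109734731-109735030, plus strand, and holds neither motif.

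Mirg: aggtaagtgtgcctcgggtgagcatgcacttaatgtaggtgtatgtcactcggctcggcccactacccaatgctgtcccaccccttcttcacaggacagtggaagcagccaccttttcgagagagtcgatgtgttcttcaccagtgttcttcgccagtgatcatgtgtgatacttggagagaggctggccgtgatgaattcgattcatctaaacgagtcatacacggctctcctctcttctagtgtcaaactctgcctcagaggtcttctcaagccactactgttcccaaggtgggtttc

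The Peg3 window lies at chr7:6730370-6730669, minus strand.

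Peg3: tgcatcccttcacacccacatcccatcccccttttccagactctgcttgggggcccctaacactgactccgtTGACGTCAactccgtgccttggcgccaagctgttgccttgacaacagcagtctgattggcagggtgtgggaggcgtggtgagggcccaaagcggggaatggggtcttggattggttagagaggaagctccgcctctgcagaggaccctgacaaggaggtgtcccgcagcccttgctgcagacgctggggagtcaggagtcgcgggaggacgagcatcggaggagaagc

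On both strands, the hexamer was found in 12 of 48 windows of imprinted genes (25%), which belong to 11 of the 32 members matched, and in 11.6% of all 32851 windows of 300 bases. Besides Meg3, members with it included Plagl1, Nnat, Snrpn, Mest, Nap1l5, Grb10 and Igf2. The Mest windows at chr6:30737800-30738099 and chr6:30737803-30738102 both hold it and overlap almost entirely. The hexamer contains the letters CG. Member windows held CG 0 to 45 times, and those with the hexamer 7 to 45 times, against a median of 7 over all windows. The part of CG content in the share of windows with the hexamer was not tested. The palindrome was found in 3 of 48 member windows, those of Meg3, Peg3 and Usp29, and in 1.79% of all windows. The Peg3 and Usp29 windows overlap by 263 bases on opposite strands, so both hold the same copy of it. The second window of Meg3 in the same table held neither motif. A match is a stretch of letters, and binding was not measured.

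Meg3, Rian and Mirg also carry small RNAs. RefSeq places 105 distinct mature microRNAs on the plus strand between the start of Meg3 and the end of Mirg, of which 3 lie in Meg3, 6 in Rian and 19 in Mirg. The arrays did not measure mature microRNAs. The following, all from Mirg, show what the host RNA carries, with the seed (bases 2 to 8, which pair with target messages) in capitals.

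mmu-miR-453: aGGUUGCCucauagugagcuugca
mmu-miR-496a-5p: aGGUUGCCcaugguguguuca
mmu-miR-410-3p: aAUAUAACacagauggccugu
mmu-miR-154-5p: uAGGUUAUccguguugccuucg
mmu-miR-377-3p: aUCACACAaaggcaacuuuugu

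The first pair shares the seed GGUUGCC. The 105 sequences hold 97 different seeds, 8 of them shared by more than 1 sequence, so most microRNAs of the cluster have a seed of their own.

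Libraries and tissue were checked first. Log2 signals correlated at 0.978 to 0.985 between any pair of arrays. Neither probe set of Pphln1 passed: at 1434822_at the signal was 352.8, 269.2 and 337.5 in heterozygous brains 1, 2 and 3 and 294.9, 290.2 and 314.0 in wild-type brains 1, 2 and 3, a log2 difference of 0.08 (SE 0.11), and the groups overlapped. At the dimmer 1435766_at it was 30.6, 44.4 and 36.6 against 63.2, 47.3 and 46.3, a difference in log2 signal of -0.36 (SE 0.18; adjusted p = 0.956 by limma), with every heterozygous brain below every wild-type brain. Whether either probe set lies in the disrupted part of the gene is not known here. Summed signals of 10 neuronal markers lay between 32088 and 36896 in heterozygous and between 32587 and 34147 in wild-type brains, those of 8 astrocyte markers between 17702 and 20242 against 18100 and 19066, those of 10 choroid plexus markers between 10008 and 12747 against 9748 and 11226, and those of 10 hypothalamic markers between 1960 and 2265 against 1864 and 2186. All of these ranges overlapped, and markers of brain cells were present on every array. Heterozygous brain 1 had the highest sum of all arrays for neuronal, astrocyte and choroid plexus markers. For hypothalamic markers heterozygous brain 2 was the highest. The part of this order in the results below was not tested. The sums weigh the brightest genes most. Of 25 astrocyte probe sets, 7 were higher and 5 had an unadjusted p below 0.05 by limma, against 4.83% of all probe sets. Genotypes did not overlap at 3 of the 25, against 10.2% of all. By the brightest probe set, 3 of 8 astrocyte genes were higher. The lowest log2 differences of the 8 were those of Gfap, -0.40 (SE 0.20), and Slc1a3, -0.27 (SE 0.12). The highest was that of Aldoc, 0.16 (SE 0.09). Of 10 neuronal genes 8 were higher, but Slc17a7 gave -0.27 (SE 0.09) without overlap. The part of cell mixture in the results was not tested. Pituitary markers differed widely between arrays and are given beside Dlk1. The ratio of 3' to 5' signal of Gapdh, a sign of RNA and labelling quality, was 0.747 to 0.755 in heterozygous and 0.713 to 0.731 in wild-type brains with no overlap, whereas that of Actb was 1.6 to 1.72 against 1.64 to 1.7. The part of this ratio in the results was not tested.

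Between genotypes, differences in signal were small for most imprinted genes. None of the 74 member probe sets passed the threshold of limma after Benjamini-Hochberg adjustment over all probe sets, the lowest adjusted p being 0.956, and only 4 of 27022 probe sets of the array did so (0.0148%). At an unadjusted p below 0.05 there were 10 of 74 member probe sets (13.5%), against 4.83% of all probe sets. All 10 were higher in heterozygous brains. Over the array, 657 of the 1306 probe sets at that p were higher, which is 2.43% of all probe sets tested. They belonged to Meg3 (9) and Mirg (1), and without Meg3 the count was 1 of 63 (1.59%). Counted by gene, with the brightest tested probe set for each, Meg3 and Mirg made 2 of 31, against 4.38% of all genes. Genotypes did not overlap at 3 member probe sets (4.05%), 2 of Meg3 and 1 of Airn, against 10.2% of all probe sets. Without Meg3, the share of member probe sets at an unadjusted p below 0.05 was thus below the background.

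By the brightest probe set, 19 of 31 imprinted genes were higher and 12 lower in heterozygous brains, with a median log2 difference of 0.06 and a range of -0.29 to 0.37. Over all genes the median was 0.01, with 6769 higher and 6255 lower. The difference was smaller than 0.15 in size for 24 of the 31 genes and at least 0.2 for 6 (Meg3, Mirg, Magel2, Airn, Plagl1 and Asb4). The typical spread between brains of a genotype, as a residual SD of log2 values, was 0.12 for imprinted genes and 0.15 for all genes.

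**Figure D1:**
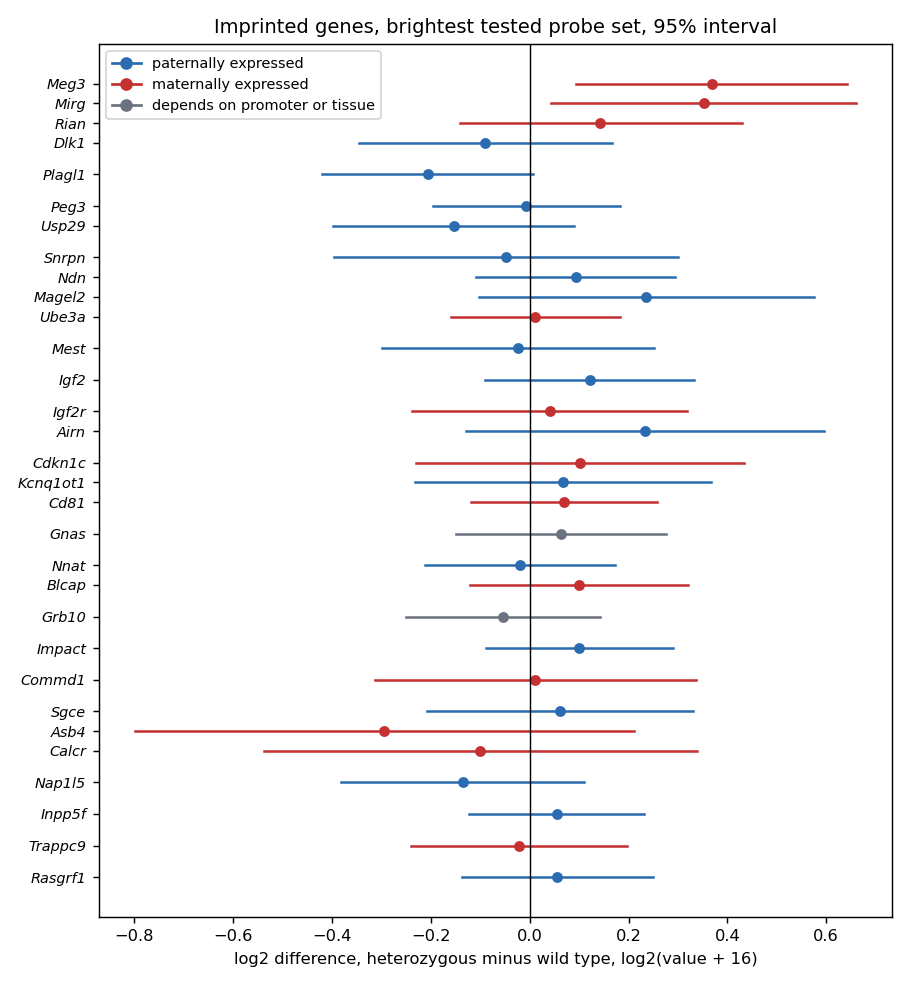
Log2 difference in signal between heterozygous and wild-type brains (3 each) for the brightest tested probe set of each of 31 imprinted genes, grouped by cluster and coloured by the parental copy expressed; bars are 95% confidence intervals of limma. The intervals of Meg3 and Mirg lie above 0, and those of the other genes cross it.

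Meg3, a noncoding RNA kept largely in the nucleus and the member with the highest difference, was higher in heterozygous brains at all 11 of its probe sets. At the brightest, 1439380_x_at, the signal was 3242, 2432 and 2797 in heterozygous brains 1 to 3 and 2473, 2217 and 1863 in wild-type brains 1 to 3. Brain 2 of the heterozygous group fell just below brain 1 of the wild type, so the groups overlapped. The log2 difference was 0.37 (SE 0.13, 95% interval 0.09 to 0.64, n = 3 and 3; limma unadjusted p = 0.0132, adjusted p = 0.956). An exact permutation test gave p = 0.2, where 0.1 is the smallest that 3 against 3 brains allow. At 1426758_s_at the signal was 2227, 1454 and 1616 against 1294, 1177 and 954, and every heterozygous brain lay above every wild-type brain. That log2 difference of 0.61 (SE 0.15; limma unadjusted p = 0.00223, adjusted p = 0.956; exact permutation p = 0.1) was the largest of any member probe set. The only other Meg3 probe set without overlap, 1436713_s_at, had signals of 909, 766 and 674 against 672, 542.5 and 554, a log2 difference of 0.40 (SE 0.12). The probe sets of Meg3 read the same RNA in the same 6 brains and are not replicates of the genotype.

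The other 8 Meg3 probe sets gave log2 differences of 0.26 to 0.46, and the median of all 11 was 0.38, so the folds ran from 1.2 to 1.53. At 1452183_a_at the signal was 2517, 1694 and 2145 against 1874, 1433 and 1418. At 1452905_at it was 2396, 1710 and 1890 against 1956, 1280.0 and 1436. Both placed wild-type brain 1 above heterozygous brain 2. At 1452906_at the signal was 2241, 1406 and 1940 against 1506, 1286 and 1521. At 1429256_at it was 1915, 1239 and 1446 against 1325, 994 and 1164. At 1428765_at it was 1768, 1319 and 1468 against 1383, 1109 and 997, and at these 3 probe sets heterozygous brains 1 and 3 stood above the wild-type group, as they did at 10 of the 11. At the dimmest, 1436057_at, the signal was 533, 361.0 and 530 against 389, 297 and 328. At 1428764_at the signal was 1222, 756 and 1097 against 876, 767 and 760.5 (limma unadjusted p = 0.0547, adjusted p = 0.956). At 1429257_at it was 957.5, 544 and 854 against 691, 551 and 671 (limma unadjusted p = 0.167, adjusted p = 0.956). At both, heterozygous brain 2 was the lowest of the 6.

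The Meg3 difference was thus uneven over brains. Heterozygous brain 1 was the highest of the 6 at all 11 probe sets, heterozygous brain 3 the second highest at 9, and wild-type brain 1 was above heterozygous brain 2 at 9. Averaged over the 11 probe sets, the log2 signal relative to the mean of the 6 brains was 0.47, -0.08 and 0.21 in heterozygous brains 1, 2 and 3 and 0.00, -0.31 and -0.28 in wild-type brains 1, 2 and 3. Leaving out 1 brain in turn kept the difference at 1439380_x_at between 0.26 and 0.47 and that at 1426758_s_at between 0.43 and 0.74. The number of the 74 member probe sets at an unadjusted p below 0.05 fell from 10 to 3 without heterozygous brain 1 and to 6 without wild-type brain 2. Over all 27022 probe sets that count was 1306 with all brains, 1206 without heterozygous brain 1 and 1640 without wild-type brain 2.

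**Figure D2:**
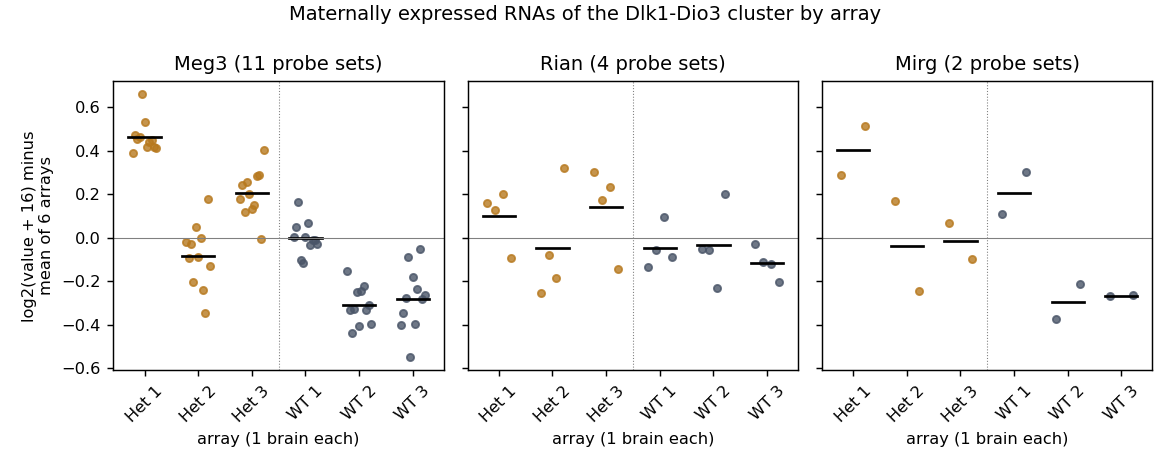
Log2 signal on each array minus the mean of the 6 arrays, for the probe sets of Meg3 (11), Rian (4) and Mirg (2); each point is a probe set and the bars are the means of the array. For Meg3, heterozygous brains 1 and 3 stand highest, and heterozygous brain 2 and wild-type brain 1 lie between them and wild-type brains 2 and 3.

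Rian and Mirg, made in the same direction downstream of Meg3, host small nucleolar RNAs and microRNAs. Rian was higher at 4 of 4 probe sets by log2 differences of 0.06 to 0.17, none with an unadjusted p below 0.05. At its brightest, 1452899_at, the signal was 608, 453 and 674 against 493, 523 and 531, and the difference was 0.14 (SE 0.13). It was 0.03 without heterozygous brain 3 and 0.31 without heterozygous brain 2. Heterozygous brain 2 was the lowest of all 6 there, and for Meg3 it had the lowest mean of the heterozygous group. Mirg, which holds the microRNAs printed above, had 209, 191 and 177 at 1457030_at against 183, 126.0 and 137. That log2 difference of 0.35 (SE 0.14; limma unadjusted p = 0.029, adjusted p = 0.956; exact permutation p = 0.2) came with overlap, since wild-type brain 1 exceeded heterozygous brain 3. It stayed between 0.25 and 0.50 when each brain was left out. The second Mirg probe set, 1440097_at, had 128, 69.1 and 78.3 against 108, 71.1 and 68.0, a difference of 0.12 (SE 0.22), and again brain 1 of each genotype was the highest of its group.

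Dlk1, a transmembrane ligand-like protein of precursor and endocrine cells and the paternally expressed gene of the cluster, gave small negative differences. At 1442724_at the signal was 181, 182 and 147 against 173, 184 and 186, a log2 difference of -0.09 (SE 0.12, 95% interval -0.35 to 0.17). At 1449939_s_at it was 71.2, 69.1 and 99.8 against 216, 57.4 and 58.3, a difference of -0.18 (SE 0.36). There wild-type brain 1 was the highest and heterozygous brain 3 came next, and the difference turned to 0.37 without wild-type brain 1. The same arrays held pituitary RNA: the summed signal of 6 pituitary markers was 224, 185 and 6709 in heterozygous brains and 21234, 857 and 791 in wild-type brains. Prolactin (Prl) alone was 76.7, 38.8 and 3730 against 8306, 415 and 456, and the hormone precursor gene Pomc was 72.0, 62.2 and 130.3 against 4380, 108 and 127.5. Dlk1 is also expressed in pituitary, and the part of that tissue in the Dlk1 values was not tested. For Meg3, heterozygous brain 1 was the highest of the 6 though low for the pituitary markers. Within the wild type, brain 1 was the highest for both, and heterozygous brain 3 stood above heterozygous brain 2 for both. The part of pituitary tissue in the Meg3 values was not tested.

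**Figure D3:**
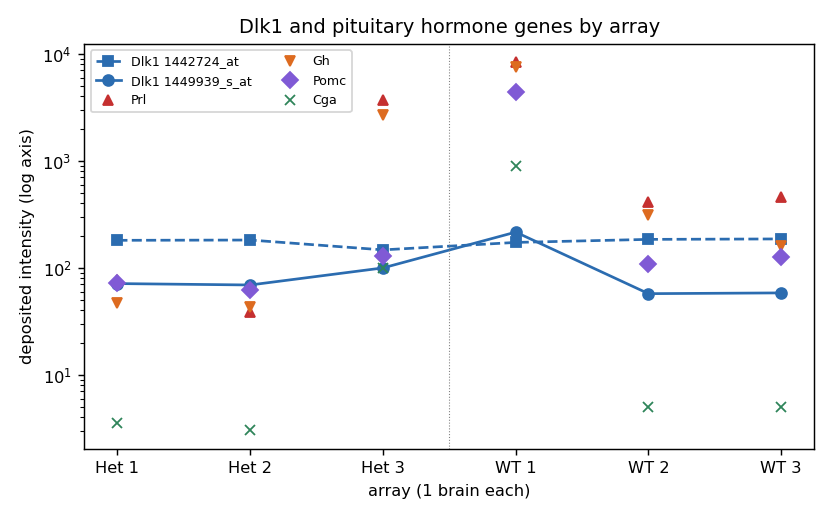
Deposited intensity (log axis) of the 2 Dlk1 probe sets and of the pituitary genes Prl, Gh, Pomc and Cga on each of the 6 arrays. Dlk1 at 1449939_s_at is highest in wild-type brain 1 (216), the array with the highest pituitary signals, and next highest in heterozygous brain 3, whereas Dlk1 at 1442724_at is 173 in wild-type brain 1.

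The Snrpn-Ube3a cluster corresponds to the region of Prader-Willi and Angelman syndromes. Its paternally expressed members tested were Snrpn, a splicing protein gene, Ndn, which encodes the neuronal protein necdin, and Magel2, which regulates protein recycling in hypothalamic neurons. Magel2 at 1417217_at had signals of 85.0, 62.9 and 69.7 against 60.5, 51.9 and 64.4, a log2 difference of 0.24 (SE 0.15), and the groups overlapped. Ndn at 1437853_x_at had 4682, 4494 and 4264 against 3758, 4538 and 4333, a difference of 0.09 (SE 0.09), and its 5 tested probe sets ranged from -0.01 to 0.11. Snrpn at 1432096_at had 142, 143 and 133.5 against 188, 141.0 and 113, a difference of -0.05 (SE 0.16). The reading of Snrpn rests on this 1 probe set, since 6 others that name it list several genes and were left out. For Snrpn the wild-type brains lay on both sides of the heterozygous ones, and for Ndn the groups overlapped with heterozygous brain 1 the highest. Mkrn3, a ubiquitin ligase gene of the same cluster, was dim on average (11.4 to 22.8 against 12.3 to 18.8) and was not tested. Ube3a, the ubiquitin ligase expressed from the maternal copy in neurons, had 1208, 1245 and 1200 against 1156, 1264 and 1206 at 1416680_at. That difference of 0.01 (SE 0.08) has a 95% interval of -0.16 to 0.18.

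In the Peg3 cluster, Peg3 encodes a zinc finger protein linked to maternal behaviour and Usp29 a ubiquitin protease that starts next to it on the opposite strand. Peg3 at 1433924_at had signals of 1933, 1813 and 2129 against 1985, 1876 and 2032, a log2 difference of -0.01 (SE 0.09), and its 3 tested probe sets ran from -0.09 to 0.08. Usp29 at 1419237_at had 171.4, 148 and 156 against 191, 172.5 and 171.4, a difference of -0.15 (SE 0.11). The heterozygous group lay lower there, with heterozygous brain 1 level with the lowest wild-type brain. A second Usp29 probe set, 1427551_at, was removed as dim, with signals of 11 to 17.7 in heterozygous and 2.27 to 2.41 in wild-type brains. Its genotypes did not overlap, but all 6 values lay under the dim limit of 18.4, and it was not tested. Peg3 and Usp29, whose windows share the palindrome printed above, thus lay at or below 0 by their brightest probe sets. Zim1, a maternally expressed zinc finger gene of the cluster, was dim throughout (0.54 to 15.6).

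Plagl1, a zinc finger transcription factor gene expressed from the paternal copy, had the lowest difference of the paternally expressed genes by the brightest probe set. At 1426208_x_at the signal was 1033, 882 and 1030 against 1221, 1030 and 1155. Heterozygous brains 1 and 3 lay at the lowest wild-type brain and heterozygous brain 2 lay below it. The log2 difference was -0.21 (SE 0.10; limma unadjusted p = 0.0568, adjusted p = 0.956). A much dimmer probe set, 1450533_a_at, gave 0.07 (SE 0.24), so the lower signal rests on 1 probe set.

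Growth genes and their noncoding partners were measured next. Igf2, the growth factor gene expressed in brain mainly by choroid plexus and meninges, where both copies are used, had 797, 717 and 846 at 1448152_at against 700.4, 789.5 and 676, a log2 difference of 0.12 (SE 0.10), and the groups overlapped. The summed signals of 12 meningeal markers overlapped too, at 1837 to 1999 against 1704 to 2081. Igf2r, the receptor that clears IGF2 and is made from both copies in neurons, had 108, 111 and 114 against 112.5, 94.1 and 117 at 1424112_at, a difference of 0.04 (SE 0.13), and its other probe set gave -0.10. Airn, the noncoding RNA made antisense across Igf2r, had 35.3, 46.8 and 46.9 against 33.3, 34.5 and 34.1 at 1451634_at. Every heterozygous brain was above every wild-type brain, the difference was 0.23 (SE 0.16; limma adjusted p = 0.956). Its exact permutation p of 0.1 is the smallest possible. At the dimmer 1436627_at it was 34.9, 35.1 and 18.03 against 22.4, 18.2 and 18.7, a difference of 0.32 (SE 0.21) with overlap. Both Airn probe sets were near the dim limit, where an added pseudocount shrinks differences.

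In the Kcnq1ot1 cluster all 5 tested probe sets were higher in heterozygous brains, none with an unadjusted p below 0.05. Kcnq1ot1, the paternally expressed noncoding RNA that silences its neighbours, had 85.0, 72.1 and 83.0 against 81.8, 71.1 and 73.8 at 1457781_at, a log2 difference of 0.07 (SE 0.14). At 1458161_at it had 118, 68.9 and 48.9 against 58.9, 51.4 and 41.1, a difference of 0.45 (SE 0.24) carried mainly by heterozygous brain 1. At 1442029_at it had 31.3, 17.6 and 47.9 against 27.7, 26.2 and 25.1, where heterozygous brain 2 was the lowest of all. Cdkn1c, the maternally expressed cell cycle inhibitor, had 61.4, 57.9 and 64.8 against 64.8, 48.6 and 55.6, a difference of 0.10 (SE 0.15). Cd81, a tetraspanin gene imprinted in placenta, had 3520, 2951 and 3203 against 3082, 3072 and 3042, a difference of 0.07 (SE 0.09). The transporter gene Slc22a18 and Phlda2, a placental growth regulator, were dim on average and were not tested.

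In the Sgce-Calcr cluster, Sgce (epsilon-sarcoglycan, a membrane protein) is paternally expressed, whereas Asb4, a ubiquitin ligase adaptor of hypothalamus, and Calcr, the calcitonin receptor, are maternally expressed. Sgce at 1420688_a_at had 275, 364 and 342 against 287, 348.5 and 299, a log2 difference of 0.06 (SE 0.12). Calcr had 17.8, 33.7 and 31.0 against 28.2, 27.8 and 34.2, a difference of -0.10 (SE 0.20). Asb4 at 1433919_at had 21.8, 24.4 and 27.6 against 54.0, 30.1 and 22.1, a difference of -0.29 (SE 0.23), the lowest of any member by its brightest probe set. That value came with a single high wild-type brain, wild-type brain 1, which was also the one with the highest pituitary signal, and the part of pituitary tissue in it was not tested. The second Asb4 probe set, 1423422_at, had 33.5, 20.5 and 24.0 against 31.4, 17.3 and 18.9 and went the other way, at 0.13 (SE 0.21).

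Gnas encodes the stimulatory G protein subunit and other products from promoters with different imprints. At 1450186_s_at its signal was 6444, 5982 and 5116 against 5393, 5754 and 5566, a log2 difference of 0.06 (SE 0.10). The dim Gnas probe sets disagreed: 1421740_at gave 0.33 (SE 0.29), with wild-type brain 2 at 8.44 and the other 5 brains between 34.5 and 42.3, 1427789_s_at gave -0.10 (SE 0.18) and 1453413_at gave -0.25 (SE 0.19). At 1453413_at the values were 14.8, 16.2 and 19.02 against 18.6, 23.4 and 26.5. At 1427789_s_at they were 32.1, 22.3 and 21.4 against 30.6, 28.8 and 24.7, and the groups overlapped at each Gnas probe set.

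Differences by more than 0.3 between tested probe sets of 1 gene also occurred for Inpp5f, Ube3a, Kcnq1ot1, Asb4 and Meg3. Inpp5f, an inositol phosphatase gene with an imprinted brain transcript, had 1256, 1342 and 1277 against 1166, 1268 and 1295 at 1433542_at, a log2 difference of 0.06 (SE 0.08). At 1447757_x_at it had 268, 398 and 287 against 394, 476 and 336, a difference of -0.33 (SE 0.16; limma unadjusted p = 0.0584, adjusted p = 0.956), with the groups overlapping. The dim 1442100_at gave 0.13 (SE 0.25). For Ube3a, 1431224_at had 27.9, 33.9 and 44.7 against 22.8, 16.4 and 40.6, a difference of 0.30 (SE 0.23), and 1416682_at had 40.3, 53.6 and 51.7 against 56.6, 65.6 and 51.0, a difference of -0.19 (SE 0.16). The far brighter 1416680_at of Ube3a lay near 0, as given above. Of these genes and Gnas, Meg3 and Kcnq1ot1 had all tested probe sets higher, and those of the others fell on both sides of 0.

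**Figure D4:**
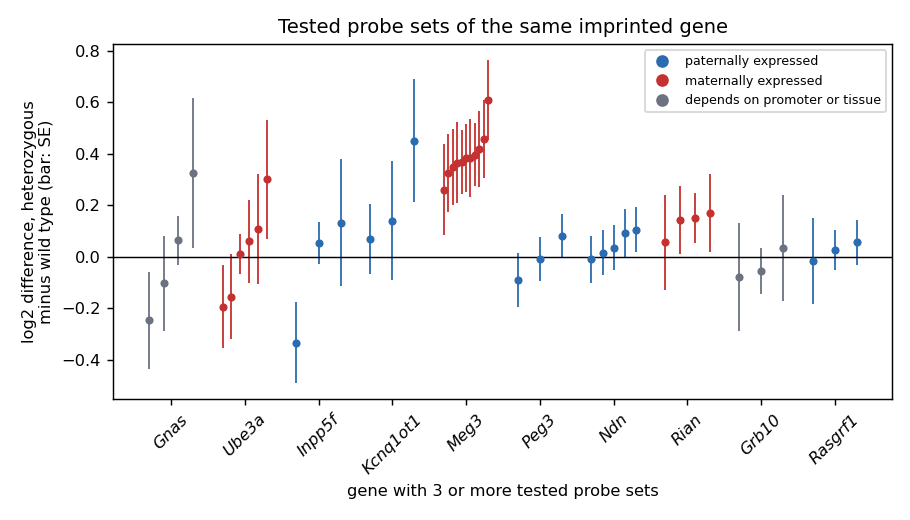
Log2 difference (heterozygous minus wild type) of every tested probe set of the imprinted genes with 3 or more of them; bars are standard errors of limma and colours the parental copy expressed. The 11 probe sets of Meg3 lie between 0.26 and 0.61, while those of Gnas, Ube3a and Inpp5f fall on both sides of 0.

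The remaining members gave log2 differences between -0.14 and 0.10 by their brightest probe sets. Nnat, a small membrane protein of developing neurons, had 1671, 1943 and 1653 against 1823, 1722 and 1783 (log2 difference -0.02, SE 0.09), and Blcap, the gene in which it lies, gave 0.10 (SE 0.10). Trappc9, a vesicle transport gene, had 291.5, 291.1 and 253.5 against 270, 286 and 293, a difference of -0.02 (SE 0.10). Nap1l5, a neuronal histone chaperone relative, had 3312, 3598 and 3080 against 3787, 4149 and 3099, a difference of -0.14 (SE 0.11). The growth factor adaptor Grb10, whose neuronal copy is paternal, gave -0.05 (SE 0.09), and the translation regulator Impact gave 0.10 (SE 0.09). Mest gave -0.02 (SE 0.13), Commd1 0.01 (SE 0.15) and the guanine exchange factor gene Rasgrf1 0.06 (SE 0.09). All groups overlapped for these genes.

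Sorted by parental copy, the groups had equal medians by the brightest probe set but not under every setting. Of 17 paternally expressed genes tested, 9 were higher and 8 lower, with a median log2 difference of 0.06 and a range of -0.21 to 0.24. Of 12 maternally expressed genes tested, 9 were higher and 3 lower, with a median of 0.06 and a range of -0.29 to 0.37. The whole-array median was 0.01. The 2 maternally expressed genes at an unadjusted p below 0.05, Meg3 and Mirg, lie in 1 cluster, whose 4 genes had a median of 0.25. Median centring of the arrays moved the members' median to 0.02 and that of all genes to -0.03. When each gene was the mean of its probe sets, the members' median was -0.002, that of the paternally expressed genes -0.02 and that of the maternally expressed genes 0.05. Without a filter on dim probe sets, and likewise with the filter at the 60th percentile, the medians were 0.02 for paternally and 0.07 for maternally expressed genes. Without heterozygous brain 1 they were 0.03 and 0.09. The difference between the parental classes was not tested.

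A further list of 40 other imprinted genes was set beside the members. Of its 25 genes tested, 17 were higher and 8 lower, with a median log2 difference of 0.05 and a range of -0.27 to 0.60. The median was -0.002 without wild-type brain 3, 0.018 without heterozygous brain 2 and 0.014 with median centring. Ago2, which encodes the slicing Argonaute protein, was the 1 gene of the 25 at an unadjusted p below 0.05, against 4.38% of all genes. Its signal was 450.2, 484 and 522 against 562, 544 and 571.5, a difference of -0.20 (SE 0.09; limma adjusted p = 0.956), with every heterozygous brain lower. A list of 29 regulators of imprints (Zfp57, Trim28, Setdb1, DNA methyltransferases, Polycomb subunits and the like) had 23 tested, 11 higher and 12 lower, with a median of -0.06. At an unadjusted p below 0.05 were 2 of the 23, Setdb1 and the chromatin remodeller gene Atrx, against the same 4.38% of all genes. Setdb1 had 239.9, 219 and 184 against 187, 150.0 and 151, a difference of 0.36 (SE 0.13; limma adjusted p = 0.956), and only heterozygous brain 3 reached into the wild-type range. Atrx had 1056, 914 and 1029 against 1281, 1124 and 1102, a difference of -0.22 (SE 0.09; limma adjusted p = 0.956), with no overlap.

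**Figure D5:**
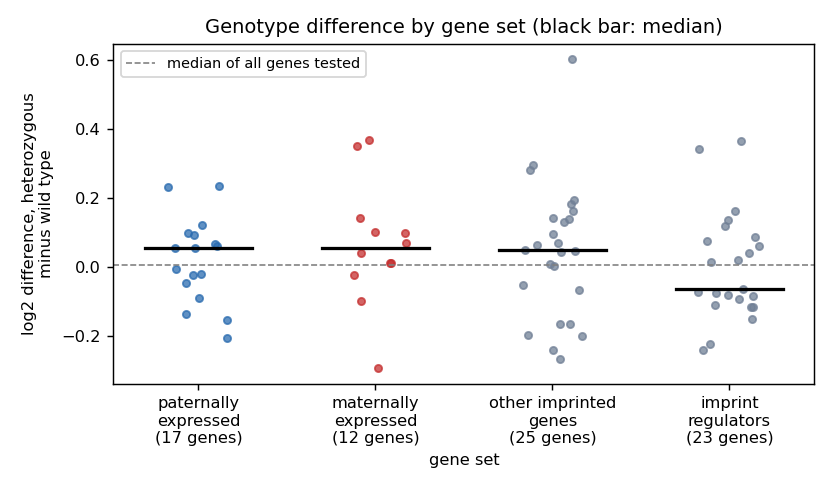
Log2 difference between heterozygous and wild-type brains for the brightest probe set of each gene in 4 sets: paternally expressed members (17 genes), maternally expressed members (12), other imprinted genes (25) and imprint regulators (23). Points are genes, black bars are medians and the dashed line is the median of all genes tested (0.01); the sets overlap widely around it.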

How the data were processed

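The labels describe 6 whole-brain RNA samples, each labelled with an oligo(dT) primer and hybridised to its own array. The authors deposited linear intensities, with each probe set summarised to a single value per array. Summarising software: not given in the sources used here. On all arrays the central 96% of values averaged 150.0, a common scale set before deposit. Array medians were 31.2 to 34.5, and the 3 arrays per genotype limit the precision. Of 45101 probe sets, 64 manufacturer controls were set apart. Of the other 45037, 34945 were annotated to 1 gene, 932 to several and 9160 are unnamed here. Current symbols came from RefSeq (GRCm38.p6) by Entrez identifier, for 34741 matches.

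Intensities were taken as log2(value + 16), which understates changes of dim probe sets. The dimmest 18015 probe sets, with a mean log2 value up to the 40th percentile (signal 18.4), were removed. Of the 27022 left for testing, 23473 name 1 gene. The comparison used limma 3.58.1 in R 4.3.3 (lmFit, eBayes with trend, no covariate), with two-sided p-values adjusted by Benjamini-Hochberg over the 27022 and called below 0.05. Single values also had two-sided exact permutation tests. Each gene was represented by its tested probe set of highest mean log2 signal. SE is the moderated standard error. The steps were tested on simulated data.

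The members and lists were chosen with earlier results of these data known, so member counts are descriptions. The parental copy assigned to each gene is textbook knowledge. Named with values on every array were the probe sets with an unadjusted p below 0.05 or non-overlapping genotypes with a difference of at least 0.2, the brightest probe set in clusters of 3 or more members, and genes whose probe sets differed by more than 0.3. Genes of the other lists were named at an unadjusted p below 0.05. Other values given were added after they were seen. The alternatives tried were median centring, quantile normalization, a pseudocount of 1 or 64, no filter and the 60th percentile, eBayes without trend, a replicate block, the mean of a gene's probe sets, and each array left out.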

Additional observations from a re-analysis of the deposited data

How the results depend on the processing

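No imprinted probe set passed the adjusted threshold of limma under any alternative. Under the 4 alternatives that rescale the values, 289 of 296 member values kept their direction. Other filters, eBayes settings and the block leave a probe set's difference as it is. The 7 that reversed were, under quantile normalization, Ndn 1435382_at (-0.024) and 1455792_x_at (-0.001) and, under median centring, Ube3a 1416680_at (-0.024), Rasgrf1 1422600_at (-0.008), Commd1 1424122_s_at (-0.024), Grb10 1430164_a_at (-0.0002) and Ndn 1435382_at (-0.018). The count called over the whole array was 1 without a filter on dim probe sets and 1 without the trend in eBayes, and ran from 1 to 14 with each array left out. The 14 came without heterozygous brain 1, the 1 without heterozygous brain 2, and the count was 2 without heterozygous brain 3 and 2 without wild-type brain 3. With no filter, 2250 probe sets had an unadjusted p below 0.05. For imprinted probe sets that count ran from 3 to 14 with each array left out, while the count over the array ran from 1087 to 1640. The members' median log2 difference was 0.032 with quantile normalization, 0.020 with median centring and -0.002 as the mean of all tested probe sets per gene, and 0.027 to 0.055 with each array left out. The median of all genes was -0.028 with median centring. The median of paternally expressed genes was 0.020 with centring, 0.024 with no filter, 0.024 with the filter at the 60th percentile, -0.020 as the mean of probe sets and -0.007 to 0.036 with each array left out. That of maternally expressed genes was 0.020 with centring and 0.033 to 0.086 with each array left out. That of imprint regulators was 0.005 as the mean of probe sets and -0.050 to 0.008 with each array left out. The cause of these shifts was not tested.

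The main comparison did not treat brains of the same replicate number as pairs, and the labels do not say whether they are. Deviations from the genotype means correlated at 0.0823, 0.202 and -0.0183 between brains of the same number. Between brains of different numbers they correlated at -0.156 to 0.0854, and whether the numbers pair the brains was not tested. With the replicate block, 5 probe sets were called over the array and 0 of the imprinted ones, whose lowest limma adjusted p was 0.174, and 15 imprinted probe sets had an unadjusted p below 0.05, as did 1894 (7.01%) over the array.

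With each array left out, 43 member probe sets, all those of Meg3 included, never reversed and 31 did. Their log2 differences then ran as follows: Calcr 1418688_at -0.206 to 0.073, Commd1 1424121_at -0.123 to 0.076, Commd1 1424122_s_at -0.107 to 0.196, Dlk1 1442724_at -0.137 to 0.002, Dlk1 1449939_s_at -0.464 to 0.365, Gnas 1421740_at -0.07 to 0.558, Gnas 1450186_s_at -0.01 to 0.156, Grb10 1425457_a_at -0.23 to 0.081, Grb10 1430164_a_at -0.138 to 0.224, Igf2r 1424112_at -0.042 to 0.094, Impact 1446750_at -0.541 to 0.07, Inpp5f 1442100_at -0.047 to 0.364, Kcnq1ot1 1442029_at -0.087 to 0.377, Mest 1423294_at -0.161 to 0.068, Mirg 1440097_at -0.112 to 0.297, Ndn 1435382_at -0.043 to 0.081, Ndn 1435383_x_at -0.052 to 0.057, Ndn 1455792_x_at -0.015 to 0.113, Nnat 1423506_a_at -0.094 to 0.021, Peg3 1433924_at -0.068 to 0.047, Plagl1 1450533_a_at -0.162 to 0.281, Rasgrf1 1422600_at -0.014 to 0.071, Rasgrf1 1424734_at -0.135 to 0.18, Rasgrf1 1435614_s_at -0.007 to 0.123, Rian 1428055_at -0.091 to 0.172, Sgce 1420688_a_at -0.017 to 0.175, Snrpn 1432096_at -0.204 to 0.125, Trappc9 1452745_at -0.054 to 0.041, Ube3a 1416680_at -0.02 to 0.044, Ube3a 1425206_a_at -0.037 to 0.167, Ube3a 1445727_at -0.085 to 0.261.

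With 3 arrays per genotype, none of the differences seen here passed adjustment over the array, and signals near the dim limit carry the widest errors.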

Other observations

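Other long RNAs kept in the nucleus were looked at after the Meg3 values had been seen, and were chosen for that reason, so their values are a description. Genotypes did not overlap at 10.2% of all probe sets. Malat1, a noncoding RNA of nuclear speckles, was higher in heterozygous brains at 6 of its 7 tested probe sets, with log2 differences of -0.05 to 0.67. At its brightest probe set, 1418189_s_at, the log2 difference was 0.39 (SE 0.22), and the groups overlapped. At 1438403_s_at its signal was 2565, 1352 and 1949 in heterozygous brains 1 to 3 and 1283, 1173 and 1107 in wild-type brains 1 to 3, with no overlap (log2 difference 0.67, SE 0.18; limma adjusted p = 0.956). Miat, a noncoding RNA of neuronal nuclei, had 487, 371 and 394 at 1455325_at against 339, 285 and 284, a difference of 0.44 (SE 0.12; limma adjusted p = 0.956). Snhg11, a noncoding host RNA, had 681, 470 and 596.5 at 1437311_at against 444, 407 and 290, a difference of 0.60 (SE 0.16; limma adjusted p = 0.956). At the brighter 1434292_at Snhg11 had 2219, 1572 and 1656 against 1758, 1386 and 1272. That difference was 0.30 (SE 0.14), and the groups overlapped. Neat1, the noncoding RNA of paraspeckles, was higher at both of its probe sets, by 0.17 and 0.30. Heterozygous brain 1, the highest for Meg3, was also the highest of the 6 at 5 of the 7 Malat1 probe sets at both probe sets of Miat and of Snhg11 and at 1 of the 2 of Neat1. No cause of this shared order was tested.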
